A study of Mus musculus with 4 samples.

Results

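Cycling mesenchymal cells were counted as cells of the 4 droplet RNA libraries that held at least 1 UMI (a unique molecule count) of at least 3 of 8 genes of the cell division cycle: Mki67, Top2a, Cdk1, Ccnb1, Birc5, Ccna2, Ube2c and Cenpf. They were chosen by these measured UMIs among barcodes that reached 500 genes and 1000 UMIs with no more than 10% of UMIs from mitochondrial genes, and 90 of 30454 such cells qualified. The libraries, from a study of the heterogeneity of mesenchymal progenitors of the mouse heart, held sorted cells. Hic1 CreERT2 tdTomato+ cells (C57BL/6; a tamoxifen-inducible Cre at the Hic1 locus switches on a red reporter) came from 3 pooled undamaged hearts and from 3 hearts pooled 7 days after ligation of the left anterior descending coronary artery. Hic1 citrine+ cells came from 3 undamaged hearts, and PDGFRa H2BGFP+ cells (B6.129S4-Pdgfratm11(EGFP)Sor/J, a nuclear GFP at the Pdgfra locus) from 2 undamaged hearts and 2 hearts at 7 days. The hearts of the citrine and PDGFRa libraries were each tagged with an antibody against MHC I that carried a hashtag. Which PDGFRa hashtag marks which condition is not given in the sources used here, so that library was described as a mixture. No age is given for these groups in the labels used here. Each group is 1 library, so libraries were set side by side with intervals for counting error and no test was made between them.

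A cell that divides copies its DNA in S phase with replication enzymes such as the MCM helicase and ribonucleotide reductase, then condenses and separates its chromosomes in mitosis with the kinase Cdk1, its cyclins, spindle proteins and the ubiquitin ligase APC/C. The genes of the first wave are switched on by E2F factors, and those of the second mostly through promoters with a CHR element and CCAAT boxes, bound by the DREAM repressor in resting cells and by B-MYB and FOXM1 in cycling ones. In the adult heart, fibroblasts and pericytes rarely divide. After an infarct, fibroblasts enter the cycle within days and turn into myofibroblasts, which carry smooth muscle actin (Acta2) and periostin (Postn).

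The promoters of most rule genes hold the letters of this second wave, and 4 are printed to show them. Of the 8 rule genes, 7 have an entry in the RefSeq promoter table (GRCm38.p6). The 150 bases before the annotated start are given 5′ to 3′ on the gene's strand, and capitals mark the CHR letters TTTGAA or TTCGAA and the letters CCAAT on either strand. The windows lie at chr7:135716380-135716529 on the minus strand, chr11:99024190-99024339 on the minus strand, chr10:69352913-69353062 on the minus strand and chr2:164769779-164769928 on the plus strand.
Mki67: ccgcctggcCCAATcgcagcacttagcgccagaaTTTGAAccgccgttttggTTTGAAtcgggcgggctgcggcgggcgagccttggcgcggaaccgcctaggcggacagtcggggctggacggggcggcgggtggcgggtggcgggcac
Top2a: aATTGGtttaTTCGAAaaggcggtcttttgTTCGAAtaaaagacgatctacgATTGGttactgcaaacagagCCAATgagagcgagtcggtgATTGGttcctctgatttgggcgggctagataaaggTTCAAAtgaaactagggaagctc
Cdk1: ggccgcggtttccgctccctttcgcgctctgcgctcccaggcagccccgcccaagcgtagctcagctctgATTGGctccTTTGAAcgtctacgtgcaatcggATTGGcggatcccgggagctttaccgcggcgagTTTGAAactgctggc
Ube2c: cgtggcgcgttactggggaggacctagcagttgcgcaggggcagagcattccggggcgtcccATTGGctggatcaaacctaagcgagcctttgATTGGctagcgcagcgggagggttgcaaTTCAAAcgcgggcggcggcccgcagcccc
Mki67 encodes the proliferation antigen Ki-67, Top2a topoisomerase II alpha, which untangles replicated chromosomes, and Ube2c the APC/C's ubiquitin-conjugating enzyme. Over windows of 300 bases, from 250 before to 50 after the start, CHR letters stood in 5 of the 7 rule genes, and all 5 also held CCAAT. The windows of Birc5 (survivin, a chromosomal passenger protein) and Ccnb1 (cyclin B1) held no CHR letters.

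Among other cycle genes the letters differed between the lists. CHR letters stood in 28 of 36 mitosis genes with an entry (77.8%) and in 5 of 29 replication genes (17.2%), against 21.7% of the 27025 genes of the table. CHR and CCAAT together stood in 66.7% of the mitosis genes and 8.61% of all genes. The E2F-type letters GCGGGAA or GCGCGAA stood in 18 of the 29 replication genes (62.1%), 1 of the 36 mitosis genes and 6.86% of all genes. The mitosis and replication lists leave out the rule genes. A match of letters describes a window and is not evidence of binding there.

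The libraries kept between 2786 cells (undamaged tdTomato) and 12567 cells (PDGFRa) each, with 9821126 to 120683114 UMIs in all. Libraries shared at most 35 cell barcodes, and none was that of a cycling cell. Markers of other cell types were low in most cycling cells, with exceptions for endothelial and epicardial genes. None held a UMI of the leukocyte gene Ptprc (upper exact 95% limits of 14.8, 11.6 and 10.3% in the ligated, citrine and PDGFRa cycling cells) or of a neutrophil marker. Summed macrophage markers reached 4.60 to 6.98 CPM (UMIs scaled to a common library total) in the 3 larger sets of cycling cells, against 8.76 to 14.2 CPM in cells with none of the 8 genes. Endothelial markers summed to 460 CPM in the ligated cycling cells against 379 CPM, mostly from 71 UMIs of Fabp4 in 9 cells, while Cdh5, Kdr and Emcn were at 0. The highest ligated cell reached 5796 CPM of the endothelial list. In the citrine and PDGFRa cycling cells they summed to 16.8 and 22.3 CPM. Epicardial markers were at 0 in the ligated and citrine cycling cells and summed to 37.7 CPM in the PDGFRa ones, against 4.11 CPM. There 21 UMIs of 3 of the 6 epicardial genes (1068 CPM) came from 1 cell of over 1 hashtag, which held 1 UMI each of Pdgfra and Tcf21 and none of Dpt or Postn. Counting that cell, 88 of the 90 held at least 1 of the fibroblast markers Pdgfra, Dpt and Tcf21 or the pericyte markers Rgs5, Kcnj8 and Vtn.

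Cycling cells were rare in every library and made up the largest share in the ligated tdTomato library. They were 3 of 2786 undamaged tdTomato cells (0.108%, exact 95% interval 0.0222 to 0.314%), 23 of 4263 ligated tdTomato cells (0.540%, 0.342 to 0.808%), 30 of 10838 citrine cells (0.277%, 0.187 to 0.395%) and 34 of 12567 PDGFRa cells (0.271%, 0.187 to 0.378%). The undamaged and ligated tdTomato intervals do not overlap, while the citrine and PDGFRa shares were nearly equal. These intervals cover counting error only and say nothing of the spread between hearts, since each tdTomato library is 1 pool.

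Detection of the 8 genes grows with depth, and the cycling cells were deep. Their median UMI totals were 7011, 7640, 15466 and 20068.5 in the undamaged, ligated, citrine and PDGFRa libraries, against 3452, 3623.5, 7955 and 7512 in cells with none of the 8 genes. With every cell thinned to 2000 UMIs the shares were 0.0887, 0.305, 0.164 and 0.122%, in the same order of libraries. At that depth the ligated share was still the highest and the undamaged tdTomato share the lowest, but their intervals overlapped (0.165 to 0.556% and 0.0102 to 0.305%).

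Within the citrine library, whose 3 hearts were all undamaged, the hashtags gave 1 cycling cell of 1856 (0.0539%), 5 of 2735 (0.183%) and 12 of 3042 (0.394%). The highest of these undamaged hearts overlaps in its interval with the ligated pool. In the PDGFRa library the 4 hashtags gave 12 of 3331 (0.360%, 0.186 to 0.628%), 13 of 3196 (0.407%, 0.217 to 0.695%), 1 of 2133 (0.0469%) and 1 of 2125 (0.0471%). Barcodes with over 1 hashtag, which can hold cells of several hearts, included 11 of the 30 citrine cycling cells (36.7%, 19.9 to 56.1%) and 6 of the 34 PDGFRa ones (17.6%, 6.76 to 34.5%). Among cells with none of the 8 genes, between the 10th and 90th percentiles of the cycling cells' UMI totals, they were 17.9% and 18.7%. Those cells were still shallower, with medians of 8144 (citrine) and 14960.5 UMIs (PDGFRa), against 15466 and 20068.5 in the cycling cells. Barcodes with over 1 hashtag had medians of 12768 and 13199 UMIs, and the part of depth was not tested.

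**Figure D1:**
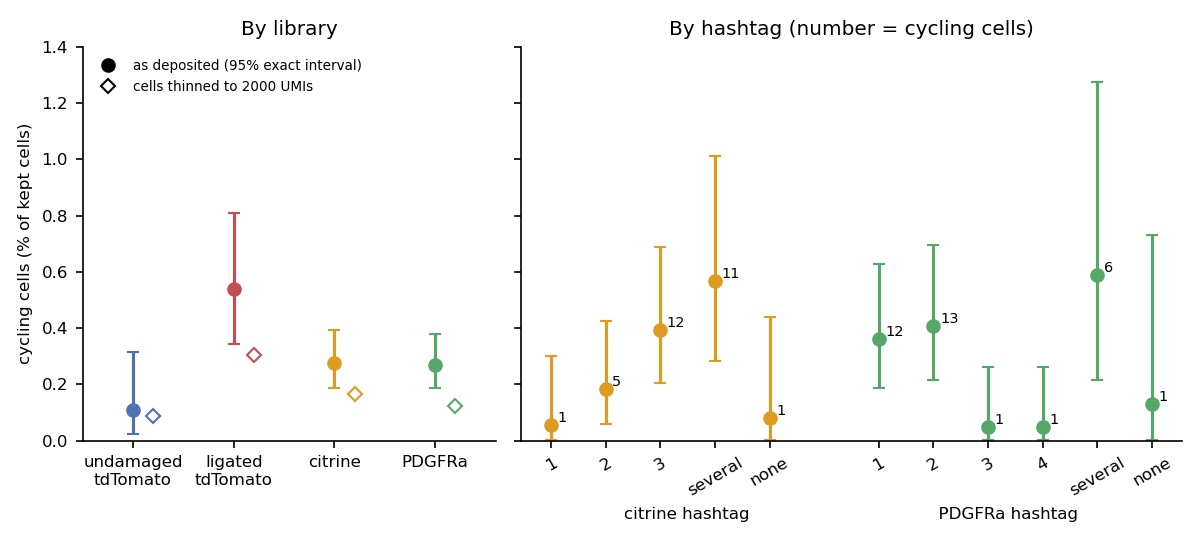
Cycling cells as a percentage of kept cells, by library (left) and by hashtag (right, with the number of cycling cells beside each point). Filled points are the shares as deposited with exact 95% intervals, and open diamonds the shares with every cell thinned to 2000 UMIs, from 0.0887% in the undamaged to 0.305% in the ligated tdTomato library.

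Most cycling cells held more of the 8 genes than the rule asks. Mki67 was the gene most often seen, in 79 of the 90 cells (87.8%), followed by Birc5 and Cenpf (82.2% each), Cdk1 (73.3%), Top2a (72.2%), Ube2c (67.8%), Ccna2 (61.1%) and Ccnb1 (53.3%). These shares are set by the rule and are given as a description. All 8 genes were present in 1, 5, 8 and 10 cells of the undamaged, ligated, citrine and PDGFRa libraries. The Mki67 level of a cycling cell ran from 0 over a median of 215 CPM to 1572 CPM in the ligated library, with medians of 293 and 246 CPM in the citrine and PDGFRa libraries.

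Just inside the rule, 14 cells held exactly 3 of the genes, and just outside it 78 cells held 2. In the cells with exactly 3, Mki67 stood in 78.6% and Cenpf, a kinetochore protein, in 71.4%. In the cells with 2, Cdk1 was the commonest (51.3%), Mki67 stood in 24.4%, and the cyclins Ccnb1 and Ccna2 stood in 2.56% and 1.28%. By mitosis genes the neighbours of the threshold lay between the cycling cells and the rest. A cell with exactly 3 held a median of 8.5 to 13.5 of the 44 other mitosis genes in the 3 larger libraries, a cell with 2 held 4 to 6.5, and a cycling cell of those libraries 24.5 to 25. Cells with none held 1 or 2. They were shallower, with medians of 3623.5, 7955 and 7512 UMIs (ligated, citrine and PDGFRa), against 9049, 17769.5 and 16738 in cells with 2. In the depth range of the PDGFRa cycling cells, cells with none held a median of 3, close to the 4 of PDGFRa cells with 2. The part of depth was not tested. The 35 replication genes did not follow the order of the mitosis genes. Ligated cells with 2 held a median of 5, as cycling cells did, and the 2 citrine cells with exactly 3 held 19, against 11 in the citrine cycling cells.

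By their other cycle genes, most of these cells leaned to the mitotic side of the cycle. More UMIs of the 44 mitosis genes than of the 35 replication genes were held by 69 of the 90 cells, 20 held fewer, and 1 held as many. The ligated library had 20 cells on the mitosis side and 2 on the replication side, the citrine library 22 and 8, the PDGFRa library 25 and 9, and the undamaged tdTomato library 2 and 1. A cell held a median of 25 mitosis genes (0 to 43) and 7 replication genes (0 to 35). Most of the rule genes are known to peak in G2 and mitosis, so the rule itself favours that side.

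**Figure D2:**
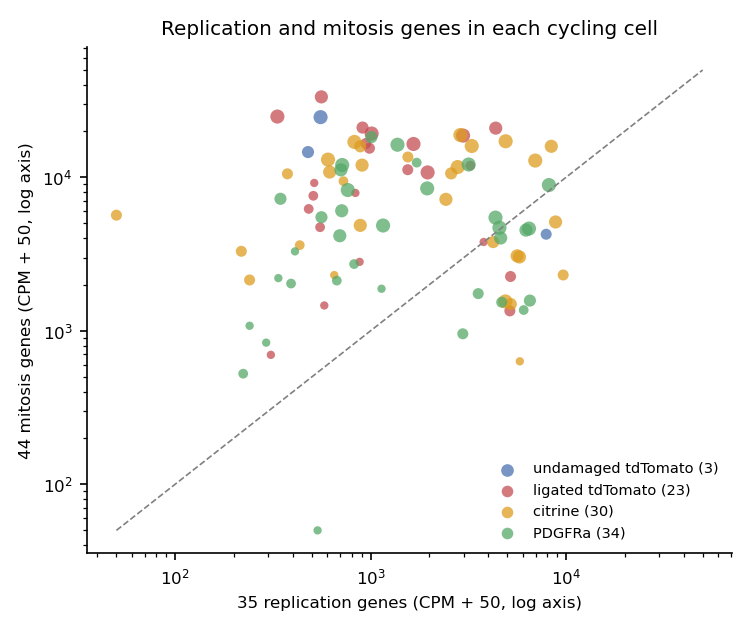
Summed CPM of 35 replication genes (x, CPM + 50, log axis) against 44 mitosis genes (y, CPM + 50, log axis) in each cycling cell, coloured by library, with larger points for cells that hold more of the 8 rule genes. The dashed line marks equal levels, and 69 of the 90 cells lie above it.

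Cells with more rule genes held more mitosis genes, and those with 7 or 8 also more replication genes. The 26 cells with 3 or 4 rule genes held a median of 15 mitosis and 5 replication genes, the 25 with 5 or 6 held 21 and 5, and the 39 with 7 or 8 held 35 and 14. Median depth was 13606.5, 11763 and 19888 UMIs in these sets, so depth differs too, and its part in the difference was not tested. The replication side was most frequent at 5 or 6 rule genes, with 10 of the 25 cells, against 3 of 26 and 7 of 39. Of the 3 undamaged tdTomato cells, 1 held all 8 rule genes with 244 mitosis and 5 replication UMIs, 1 held 6 with 102 and 3, and 1 held 5 with 23 and 43.

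For the other genes, UMIs were summed over the cycling cells of each library and set against cells of the same library with none of the 8 genes. Ratios are log2 ratios of CPM with a pseudocount of 1 UMI. Genes were measured if the mean CPM of cycling and comparison cells gave at least 10 expected UMIs in the cycling cells. That minimum was 46.0, 18.7 and 14.0 CPM in the ligated, citrine and PDGFRa libraries. A gene near 0 in either set could pass only by being high in the other. Counts past 2-fold in lists of such genes are thus partly fixed by this minimum. A gene was called at a ratio over 2-fold. Of 3186 genes in the ligated library 10.7% were higher and 8.44% lower. Of 6429 in the citrine library 9.18% were higher and 6.32% lower, and of 7020 in the PDGFRa library 6.72% were higher and 5.63% lower. The median ratios of all these genes were 0.19, 0.08 and 0.05. The 3 undamaged tdTomato cells were too few for this. Since the rule chose the cells by genes of this contrast, the counts below describe the cells, and no test was made. For the lists and for genes where it matters, a ratio is also given to matched cells with none of the 8 genes, of the same hashtag call and with a UMI total within 25% of each cycling cell. They were 4009, 6116 and 4511 cells for 23 of 23, 28 of 30 and 34 of 34 cycling cells, and were chosen after the data were seen.

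The mitosis genes led every library. Of the 44 listed, 27 of the 29 measured were higher and none lower in the ligated cycling cells. In the citrine cells 40 of 41 were higher and none lower, and in the PDGFRa cells 38 of 40 and none. The 44 genes summed to 326, 289 and 265 CPM in the comparison cells. Most of those measured thus passed the minimum only through the cycling cells, which largely fixes these counts. The median log2 ratios were 5.39, 5.73 and 5.21, and 5.17, 5.59 and 5.25 against matched cells. Cdc20, the APC/C activator of anaphase, reached 718 CPM (156 UMIs in 18 of 23 cells) in the ligated cycling cells against 1.32 CPM, with log2 ratios of 6.93, 6.37 and 5.58 in the 3 libraries. Cks2, a small subunit of Cdk1, stood at 1431 CPM against 9.15 CPM, a 156-fold ratio (exact 95% interval 128 to 191). Cenpa, the histone H3 variant of centromeres, showed 5.95, 6.04 and 5.89. Ccnb2 (cyclin B2) showed 6.41, 6.96 and 6.03, and the spindle proteins Hmmr, Tpx2 and Prc1 gave 5.71 to 7.39 over the 3 libraries. Securin (Pttg1) was under 2-fold in each library, at 0.50, -0.61 and -0.73, and Bub3, a checkpoint protein, passed 2-fold in the citrine library alone, at 0.47, 1.22 and 0.57.

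The replication genes were higher too, at lower ratios. Only 7 of the 35 were measured in the ligated library, 6 of them higher, with a median of 2.68. In the citrine library 30 of 30 were higher (median 3.50) and in the PDGFRa library 28 of 28 (3.08). The 35 genes summed to 301, 286 and 282 CPM in the comparison cells, so the minimum shapes these counts too. Against matched cells the medians were 2.39, 3.49 and 2.96. Tk1, thymidine kinase, showed 4.81, 6.15 and 5.74, with 33 UMIs in 13 ligated cycling cells. Ccne2 (cyclin E2, which opens S phase) was at 4.51 and 4.37 in the citrine and PDGFRa cells. There, Rrm2, the regulated subunit of ribonucleotide reductase, was at 5.40 and 4.86, the helicase subunit Mcm5 at 4.69 and 3.95, and the sliding clamp Pcna at 2.60 and 1.90. A citrine cycling cell was far deeper than the rest (68577 UMIs, over 1 hashtag, 332 replication and 103 mitosis UMIs). With the mean of CPM over cells in place of sums, the citrine median of the list was 3.16.

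Chromatin genes tied to the cycle were higher in most cases: 18 of 23, 27 of 30 and 27 of 30, with medians of 2.12, 2.59 and 1.90 (2.06, 2.60 and 2.02 against matched cells) and none lower. Stmn1, stathmin, which destabilises microtubules, reached 1542 CPM in the ligated cycling cells against 14.9 CPM (335 UMIs in 22 of 23 cells), with log2 ratios of 6.31, 7.53 and 6.01 in the 3 libraries. The histone variant H2afz was nearly universal, with 737 UMIs in 23 of 23 ligated, 1413 in 30 of 30 citrine and 1396 in 33 of 34 PDGFRa cycling cells. Its levels were 3392, 2639 and 1949 CPM against 370, 238 and 271 CPM. Hmgb2, a chromatin architectural protein, showed 4.05, 4.00 and 3.56, and the condensin subunit Smc2 4.06, 4.30 and 3.59, whereas heterochromatin protein Cbx5 stayed near 0 (0.04, 0.34 and 0.03). Within the 4 hashtags that held at least 5 cycling cells, Stmn1 gave 5.65 and 5.33 (PDGFRa hashtags 1 and 2) and 6.73 and 6.77 (citrine hashtags 2 and 3).

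Among 24 genes of cell cycle brakes and entry, few were past 2-fold: none higher and 4 lower of 14 in the ligated cells, 2 and 1 of 20 in the citrine cells, and 3 and 3 of 23 in the PDGFRa cells. Their medians were -0.46, -0.09 and -0.27, and -0.28, -0.33 and -0.23 against matched cells. Cdkn2d, the CDK inhibitor p19, was higher in the citrine and PDGFRa cells (2.07 and 1.06) and at 0.78 in the ligated ones. Cdkn1a, the inhibitor p21, was at -0.69, 0.32 and -0.58, and cyclin D1 (Ccnd1) at -0.47, 0.57 and -0.67. Btg2, an antiproliferative gene, was at -1.98, -0.95 and -1.03. Cdk4, the kinase that cyclin D activates, was at 0.81, 0.76 and 1.10. Median log2 ratios over the 3 libraries were -2.26 for Cdkn1c, 2.14 for Cdkn2a and -1.65 for Gadd45a. Of these, Cdkn1c was under the minimum count in the ligated library.

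The lineage markers placed the cycling cells of the ligated tdTomato library in several kinds. By whichever kind had more of its 3 markers seen, 10 of the 23 were pericyte-led (Rgs5, Kcnj8, Vtn), 7 fibroblast-led (Pdgfra, Dpt, Tcf21) and 6 equal. The 10 pericyte-led cells all held Rgs5, a G protein regulator of mural cells. Of these, 9 held Kcnj8, the pore of a potassium channel of pericytes, and 7 held Vtn (vitronectin). Their summed Rgs5 was 8547 CPM, against 0 in the 7 fibroblast-led cells and 75.2 CPM in the equal ones. The fibroblast-led cells all held Dpt (dermatopontin, a matrix protein), 4 held Pdgfra and 3 held Tcf21, the fibroblast transcription factor. The 6 equal cells held Dpt in all and Rgs5 in 5, and had the highest median UMI total (12617, against 4462.5 in the pericyte-led and 10401 in the fibroblast-led cells). The tdTomato libraries carry no hashtags, so barcodes that hold 2 cells were not told apart here.

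**Figure D3:**
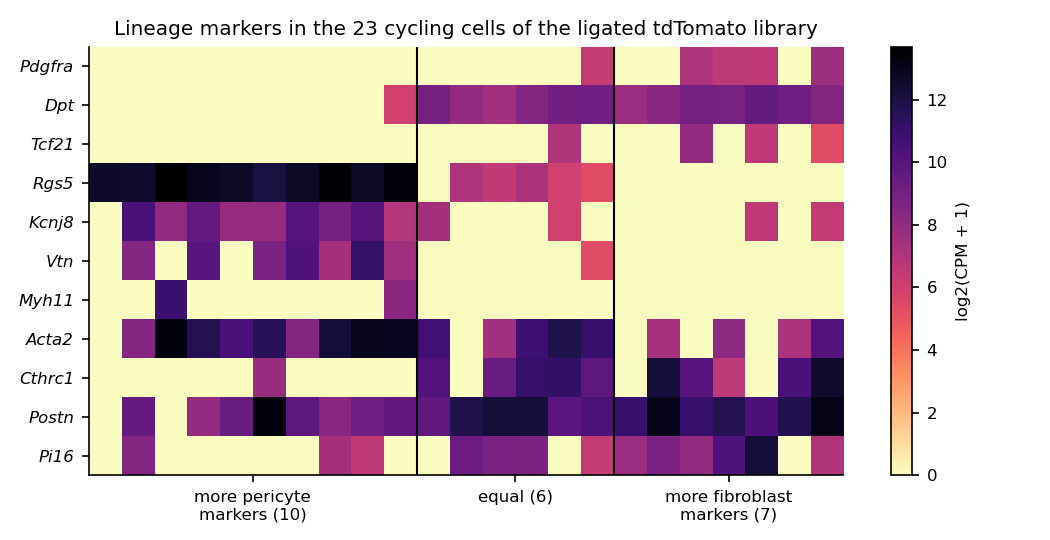
Levels of 11 lineage markers (vertical axis, log2 of CPM + 1) in the 23 cycling cells of the ligated tdTomato library (horizontal axis), ordered by which kind of marker is more often present. The 10 cells on the left hold Rgs5, the 7 on the right do not, and Postn spans all 3 sets.

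The share of cycling cells was higher among pericyte-led than among fibroblast-led cells of that library: 10 of 1123 (0.890%, exact 95% interval 0.428 to 1.63%) against 7 of 2776 (0.252%, 0.101 to 0.519%), and 6 of 364 equal cells (1.65%, 0.607 to 3.55%). Among cells of at least 5000 UMIs, with 2 or 3 markers of 1 kind and under 2 of the other, it was 4 of 104 (3.85%, 1.06 to 9.56%) against 4 of 724 (0.552%, 0.151 to 1.41%). The intervals overlap in both contrasts. Thinned to 2000 UMIs, Rgs5 stood in 45.0% (24.4 to 67.8%) of the ligated cycling cells, 26.8% of cells with none of the 8 genes and 19.5% of the matched ones. Kcnj8 stood in 31.3, 16.6 and 8.84% and Vtn in 22.9, 16.6 and 8.05%. The fibroblast markers went the other way: Pdgfra 5.18, 28.4 and 24.4%, Tcf21 4.31, 23.2 and 19.4%, and Dpt 35.9, 69.7 and 75.1%. As summed CPM, Rgs5 was level with all other cells (-0.05) and above matched cells (1.58). For Kcnj8 the sign differed, at -1.29 and 0.80.

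Cycling cells of the citrine and PDGFRa libraries were fibroblast-led, 28 of 30 and 33 of 34, with the rest equal. This is a trait of these libraries as a whole. Among their cells with none of the 8 genes, few held 2 or 3 pericyte and under 2 fibroblast markers. They were 154 of 10509 (1.47%) in the citrine and 3 of 11723 (0.0256%) in the PDGFRa library. Dpt stood in 73.9% of the citrine cycling cells at 2000 UMIs and Tcf21 in 48.7%, against 86.6% and 62.0% of cells with none of the 8 genes. In the PDGFRa cycling cells the same markers stood in 65.5% and 22.9%, against 82.5% and 45.8%. Pdgfra, the gene whose reporter was sorted there, stood in 10.7% of the PDGFRa cycling cells, 26.5% of cells with none of the 8 genes and 13.7% of matched cells. Rgs5 stood in 3.35% and 0.432% of citrine and PDGFRa cycling cells, against 2.28% and 0.527% in cells with none. Those citrine cells with none included 73 with all 3 pericyte and no fibroblast markers. The citrine Rgs5 came from 1 equal cell, with 2 Rgs5 UMIs and 1 Tcf21 UMI among 2395. It also held 5 UMIs of 2 endothelial genes (2088 CPM). A wider list of 8 pericyte genes reached up to 3340 CPM in a citrine cycling cell. Whether this Rgs5 is background or marks a pericyte was not tested. Kcnj8 and Vtn had no UMI in the 30 citrine and 34 PDGFRa cycling cells, with upper exact 95% limits of 11.6 and 10.3%. In the undamaged tdTomato library 2 cells were fibroblast-led and 1 equal. All 3 held Dpt (202, 366 and 713 CPM) and none held Postn, Acta2, Cthrc1, Kcnj8 or Myh11.

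**Figure D4:**
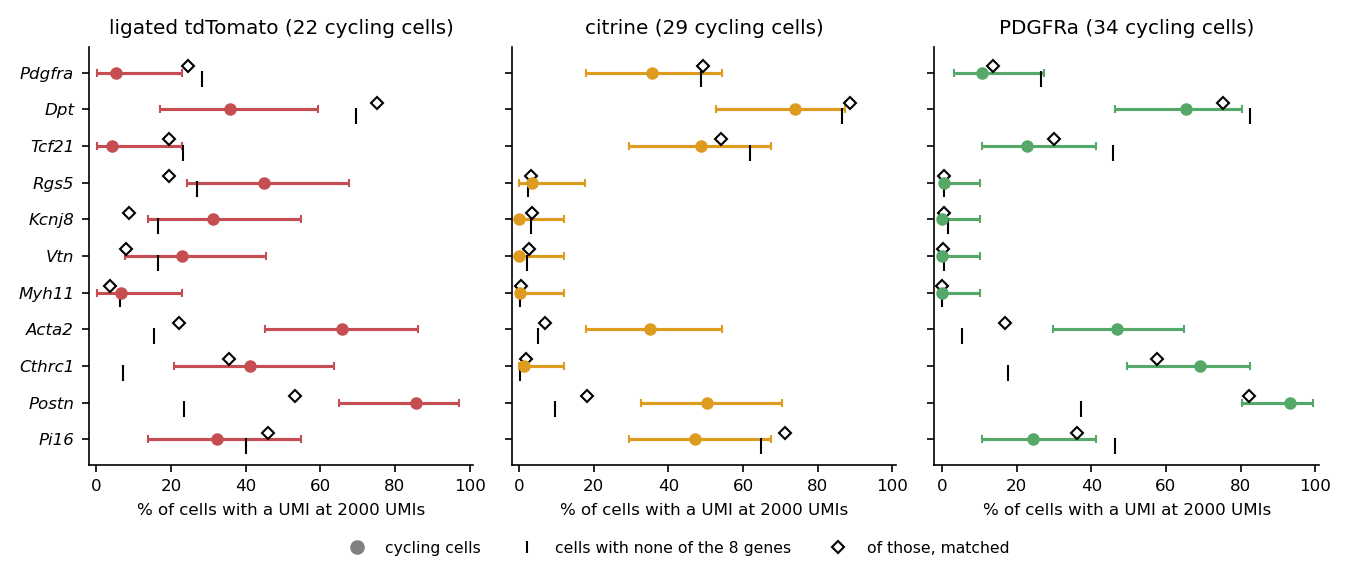
Share of cells with a UMI of each of 11 lineage markers, with every cell thinned to 2000 UMIs, for cycling cells (filled points with exact 95% intervals), cells with none of the 8 genes (ticks) and matched ones among those (open diamonds). Acta2 is to the right of both comparison marks in each library, at 65.9, 35.1 and 46.8%, and Pdgfra, Tcf21 and Dpt lie to the left.

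Acta2 and Postn were frequent in the cycling cells of each library but the undamaged tdTomato one. Postn stood in 73 of the 90 cells and Acta2 in 63, both in 57, and neither in 11. At 2000 UMIs, Acta2 stood in 65.9% (45.1 to 86.1%) of ligated, 35.1% (17.9 to 54.3%) of citrine and 46.8% (29.8 to 64.9%) of PDGFRa cycling cells, against 22.1, 7.06 and 17.0% of matched cells. Per cell, Acta2 ran from 0 over a median of 1112 to 10212 CPM in the ligated, 145 to 3299 CPM in the citrine and 252 to 9627 CPM in the PDGFRa cycling cells. Each of these libraries thus held cycling cells without an Acta2 UMI and others with a high level. The log2 ratios of Acta2 were 1.77, 3.13 and 3.41, and 2.07, 2.56 and 2.09 against matched cells, or 1.94, 1.61 and 2.44 as means over cells. Within hashtags they were 3.40 and 2.86 in PDGFRa hashtags 1 and 2, and 2.07 and 3.56 in citrine hashtags 2 and 3.

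Among cells of at least 5000 UMIs, the share of cycling cells was higher with an Acta2 UMI than without in each of these libraries. It was 13 of 372 ligated cells with an Acta2 UMI (3.49%, 1.87 to 5.90%) and 3 of 724 without (0.414%). In the citrine library it was 18 of 1220 (1.48%) and 6 of 7302 (0.0822%), and in the PDGFRa library 24 of 1985 (1.21%) and 8 of 8828 (0.0906%). Cells with an Acta2 UMI were also deeper, with medians of 7201 against 5939.5 (ligated), 10868 against 9146 (citrine) and 16245 against 7789 UMIs (PDGFRa). The part of depth was not tested. Split by a Postn UMI, the counts were 16 of 601 and 0 of 495 (ligated), 15 of 1511 and 9 of 7011 (citrine), and 31 of 6299 and 1 of 4514 (PDGFRa). Cells with a Postn UMI were deeper as well, with medians of 7363 against 5653, 11612 against 9002 and 11759 against 6947.5 UMIs. The PDGFRa split also pools hashtags that differ in Postn level and in cycling cells. The parts of depth and hashtag were not tested. For reference, among ligated cells with none of the 8 genes, Acta2 stood in 29.9% of those with all 3 pericyte and no fibroblast markers (median 2162 UMIs) and 11.5% of those with the reverse (4402 UMIs). How much of these shares is free RNA was not tested. In the ligated library Acta2 was carried mostly by the pericyte-led cycling cells, at 5132 CPM summed, against 423 CPM in the fibroblast-led and 1881 CPM in the equal ones. Of the 10 pericyte-led cells, 2 also held the smooth muscle gene Myh11 (5 and 7 UMIs), and these held 121 and 37 Acta2 UMIs. Myh11 was at 0 in the fibroblast-led and equal cells. Whether those 2 are smooth muscle cells was not tested. Cells called to the same kind and of similar depth were also compared at 2000 UMIs. Acta2 stood in 91.9 against 53.0% of the pericyte-led, 27.9 against 18.1% of the fibroblast-led and 65.7 against 22.5% of the equal cells. The mean Acta2 levels of the same sets were 3857 against 2901 CPM, 243 against 210 CPM and 1470 against 301 CPM. Tagln (transgelin), another smooth muscle gene, was lower in the pericyte-led cells (588 against 1319 CPM). These values rest on 9 of 10, 7 of 7 and 5 of 6 cells that had matches, with as few as 2, 3 and 10 comparison cells each. The matched pericyte-led cells were not fully alike in kind. Dpt stood in 16.8% of them against 1.36% of the cycling ones, and Rgs5 in 87.5 against 100%.

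The summed levels of Postn and of Cthrc1, which marks matrix-producing infarct fibroblasts, depended on the comparison cells. Postn stood at 3075 CPM in the ligated cycling cells, 881 CPM in cells with none of the 8 genes and 3346 CPM in matched cells, with log2 ratios of 1.80 and -0.12. In the PDGFRa cells the ratios were 0.89 and -0.23. In the citrine cells, all from undamaged hearts, summed Postn remained higher against matched cells, at 2.53 and 1.16 (1212, 208 and 541 CPM). Of these Postn UMIs, 264 came from 1 cell of over 1 hashtag with 68577 UMIs, against at most 78 from any other cell. The ratio without that cell was not computed. With every cell thinned as above, Postn stood in 46.7% of the 27 citrine cycling cells with matches and 18.2% of matched cells. Cthrc1 stood in 11 ligated, 4 citrine and 29 PDGFRa cycling cells, with ratios of 2.51 and -0.19 in the ligated and 1.55 and 0.26 in the PDGFRa library. Cthrc1 was almost missing from the pericyte-led ligated cells (1 of 10; 16.8 CPM) and present in 5 of 7 fibroblast-led ones (2638 CPM). Its background in ligated cells with all 3 pericyte markers, no fibroblast marker and none of the 8 genes was 2.35% (median 2162 UMIs).

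The wider list of 20 activation genes behaved as the summed Postn levels did. Against all cells with none of the 8 genes, 12 of 15 were higher and 1 lower in the ligated, 8 of 12 and 1 in the citrine and 10 of 19 and none in the PDGFRa cycling cells, with medians of 1.69, 2.09 and 1.04. Against matched cells the medians were -0.34, 1.11 and -0.08, with 2, 7 and 1 genes higher. Tnc, the matrix protein tenascin C of injured tissue, was at 4.35 in the citrine cells (3.40 matched, 2.37 as a mean over cells), and at 2.35 and 1.64 in the ligated and PDGFRa cells (0.19 and 0.40 matched). Fn1 (fibronectin) was at 1.67, 1.71 and 1.04, and at -0.34, 0.70 and -0.16 against matched cells. Timp1, an inhibitor of metalloproteinases, was at 1.69, 2.54 and 1.61, with 2.02 against matched citrine cells. Sfrp2, a secreted Wnt modulator, was lower in the ligated and citrine cells (-1.53 and -1.69) and at 0.40 in the PDGFRa cells.

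Structural matrix genes did not share this pattern. Of 20, 1 was higher and 1 lower of 19 in the ligated cells, none and 3 of 19 in the citrine cells, and none and 1 of 20 in the PDGFRa cells, with medians of 0.41, 0.01 and 0.21 (-0.44, -0.25 and -0.14 against matched cells). Col1a1, the main fibrillar collagen chain, was at 0.78, 0.04 and 0.56, and at -0.93, -0.40 and -0.31 against matched cells. Elastin (Eln) was lower, at -1.28, -1.66 and -0.82, and at -2.75, -1.93 and -1.35 against matched cells. Nid1, a basement membrane linker, lay between -0.93 and -1.02 in all 3 libraries.

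Genes of resting cardiac fibroblasts were lower in every set. Of 20 genes, 16 of 19 were lower in the ligated, 17 of 20 in the citrine and 17 of 20 in the PDGFRa cycling cells, with medians of -2.40, -1.77 and -2.20. Against matched cells 14, 16 and 8 were lower, with medians of -2.05, -1.56 and -0.90. Gsn (gelsolin, which severs actin filaments) stood at 1238 CPM in the ligated cycling cells against 15751 CPM, with log2 ratios of -3.66, -1.78 and -3.05 in the 3 libraries and -2.61, -1.47 and -1.22 against matched cells. Apoe, a lipid carrier, was at -3.28, -3.27 and -2.50, Dpep1, a membrane dipeptidase, at -4.11, -2.61 and -2.66, and the chemokine Cxcl14 at -5.07, -4.05 and -2.14. Clec3b (tetranectin) left 5 UMIs in 4 ligated cycling cells and was at -5.31 there, against -1.25 and -2.79 in the citrine and PDGFRa cells. Inmt, a methyltransferase, had no UMI in the 3 sets, at least 10.4-, 24.5- and 29.9-fold lower against a floor of 3 UMIs over the set. Of the same list, 2 genes were over 2-fold higher in the ligated cells: Mfap5, a microfibril protein (1.18, and 0.71 and 0.11 in the other libraries), and the protease inhibitor Serpina3n (1.08).

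In the ligated library part of the cycling cells were pericyte-led, which bears on fibroblast genes there. The share of pericyte-led cells was 10 of 23 cycling cells, and its part in the lower resting genes of that library was not tested. In the citrine and PDGFRa libraries, where no cycling cell was pericyte-led, the same list was lower. Within hashtags, Gsn was at -2.85 and -3.17 (PDGFRa hashtags 1 and 2) and -2.21 and -2.03 (citrine hashtags 2 and 3). Of 8 fibroblast identity genes, 5, 2 and 4 were lower and none higher, with medians of -1.35, -0.66 and -0.79. Against matched cells 4, 2 and 1 were lower, with medians of -1.17, -0.68 and -0.44. Of 12 genes of the Sca1-high progenitor state, 5 of 9, 3 of 12 and 8 of 11 were lower and 1 higher in each library, with medians of -1.16, -0.38 and -1.21. Against matched cells 4, 5 and 1 were lower and none higher, with medians of -0.89, -0.86 and -0.56. Pi16, a marker of that state, was at -0.59, -1.16 and -1.16, and stood in 57 of the 90 cells. At 2000 UMIs it stood in 32.4, 47.2 and 24.5% of the ligated, citrine and PDGFRa cycling cells, against 46.0, 71.3 and 36.1% of matched cells. Its background was 3.87% in ligated cells with all 3 pericyte and no fibroblast markers (median 2162 UMIs).

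Immediate early genes, which respond to stress and to cell isolation, were lower as a group. All 17 were lower in the ligated cycling cells (median -1.98), 11 in the citrine cells (-1.21) and 8 in the PDGFRa cells (-0.96), with none higher. Against matched cells, 17, 9 and 5 were lower, with medians of -1.70, -1.15 and -0.78. Fos, a subunit of the AP-1 factor, stood at 2163 CPM against 6301 CPM in the ligated cells, 1250 against 3160 CPM in the citrine cells and 2481 against 4207 CPM in the PDGFRa cells. Jun, its partner, was at -2.19, -1.57 and -0.94, and Zfp36, which binds and destabilises mRNA, at -2.81, -1.36 and -1.48. Klf6 differed from the group in the citrine and PDGFRa cells, at -0.05 and 0.33. Mitochondrial shares of UMIs were close in cycling cells and the rest, with medians of 2.76 against 3.34% in the ligated library, 3.17 against 3.12% in the citrine library and 2.58 against 2.83% in the PDGFRa library.

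**Figure D5:**
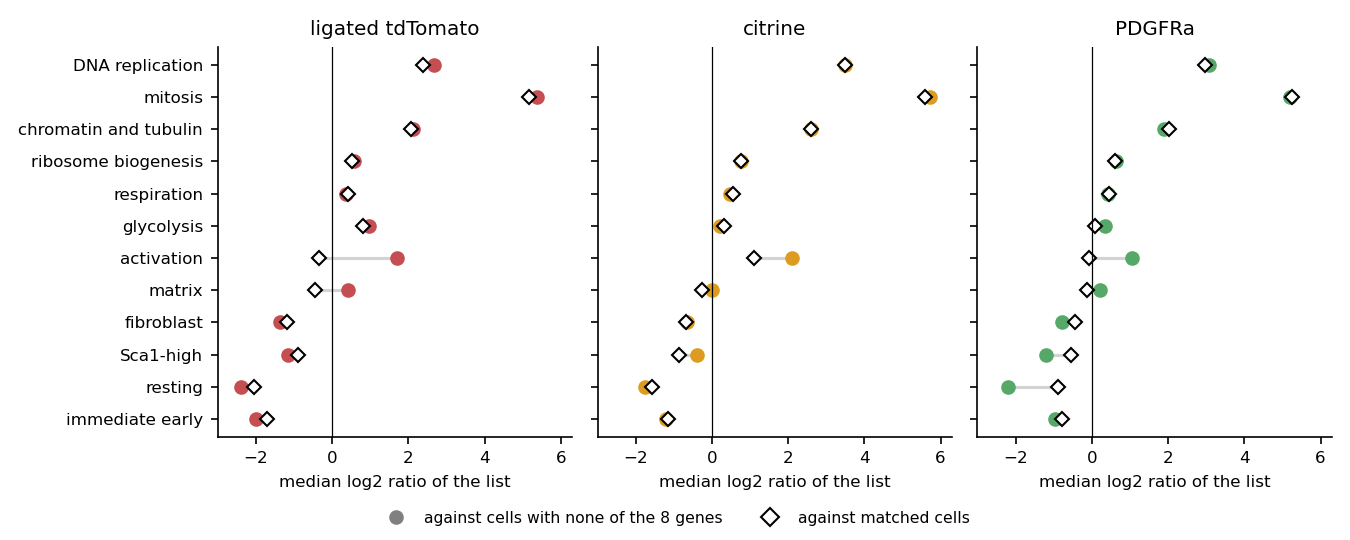
Median log2 ratio of 12 gene lists in cycling cells against all cells with none of the 8 genes (circles) and against matched ones (diamonds), in the 3 libraries with at least 20 cycling cells. Mitosis genes lie at 5.21 to 5.73 and resting genes at -2.40 to -1.77 (circles), and the activation list moves to -0.34 and -0.08 in the ligated and PDGFRa libraries against matched cells.

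Outside the lists, the highest genes common to the 3 libraries were cycle genes as well. Fam64a, a mitotic regulator, was at 6.00, 6.27 and 5.08, Pbk, a mitotic kinase, at 5.09, 6.69 and 5.99, and Aspm, a spindle pole protein, at 4.39, 5.59 and 5.28. Casc5 (the kinetochore scaffold KNL1) was at 4.75, 5.67 and 5.88, and Diaph3, a formin needed for cytokinesis, at 4.53, 5.63 and 5.49. Of the lowest, Penk, the precursor of enkephalins, was at -3.61, -1.88 and -3.04, the detoxifying enzyme Gstm1 at -3.82, -0.87 and -2.87, and the growth factor Pgf at -2.53, -2.46 and -2.53. The chemokine Ccl11 was at -2.89, -1.39 and -2.36, and at -1.58, -0.80 and -0.33 against matched cells.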

How the data were processed

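Cells of mouse hearts were measured by 10x Chromium 3′ sequencing (v2, NextSeq 500, per the labels). The authors deposited whole-number UMI counts of each gene in each barcode. Per the submitters' processing notes they come from Cell Ranger and a modified mm10 genome. Version 3.0.2 stands in the headers of the citrine and PDGFRa files, and the notes also name Seurat 2.1.

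Barcodes under 500 genes or 1000 UMIs, or over 10% mitochondrial UMIs, were left out. Cycling cells held at least 3 of the 8 rule genes. The members and lists (27, with 395 of 396 genes in the files) were chosen with earlier results of these data known. Counts were summed per library, scaled to CPM and compared with a pseudocount of 1 UMI. Genes needed at least 10 expected UMIs at the mean CPM of cycling and comparison cells. The sums were tested on simulated data. No test was made between single libraries or between cycling and other cells; alternatives were other minimum counts, pseudocounts, depths and comparison cells. Shares of cells have exact Clopper-Pearson and ratios exact Poisson 95% intervals, for counting error only. Thinned values are expected shares at 2000 UMIs, from cells of at least that depth.

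Hashtags were called with a 2-component mixture of log hashtag UMIs, chosen after the data were seen, as were the matched cells. No doublet caller was run; barcodes with over 1 hashtag were kept and counted. The genes named were drawn from the rule, its lineage markers and the 4 of each list with the largest absolute median ratio. Others are list genes whose role is described and, outside the lists, some of the 10 highest and 10 lowest common to 3 libraries. Not all of these are printed. The tools were scikit-learn 1.9.0, pandas 2.3.3, scipy 1.17.1 and numpy 2.4.6 in Python 3.11.15, with matplotlib 3.10.9 for figures.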

Additional observations from a re-analysis of the deposited data

How the results depend on the processing

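Under other choices, 313 values of shares, classes, gene counts and list medians stayed within 1.5 times or the counting interval, 54 moved and 4 changed sign. Asking for 2 rule genes gave 0.821% (ligated tdTomato), 0.424% (citrine) and 0.660% (PDGFRa); thinning to 2000 UMIs gave 0.305, 0.164 and 0.122%, and to 1000 UMIs 0.198, 0.131 and 0.0676%. Without thinning, Acta2 stood in 66.7% (citrine) and 73.5% (PDGFRa). At 2 of 3 lineage markers, 2 ligated cells held both kinds and 8 neither, no citrine cell both, and 0 and 6 PDGFRa cells both and neither. Genes higher and lower with a minimum of 20 UMIs were 197 and 149, 358 and 221, and 285 and 248; with 5 UMIs, 582 and 474 (ligated), 656 lower (citrine) and 626 lower (PDGFRa); with no filter, 1068 and 1643, 1209 and 1496, and 1072 and 1331. The citrine lower count was 653 as matched means over cells and 233 without cells of over 1 hashtag; the PDGFRa one was 217 in the members' depth range, 176 matched and 230 as matched means over cells. The higher share of called genes was then 66.3, 70.8 and 66.0% in PDGFRa, against 54.4%, and 39.4, 44.7 and 44.6% with no filter.

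The mitosis median was 4.78 with no filter (ligated) and 6.22, 6.41 and 5.86 with a pseudocount of 0.5. The citrine replication median was 3.16 as a mean over cells, 3.25 matched as such and 3.23 without cells of over 1 hashtag. The matrix median was -0.44 and -0.62 (ligated, matched; sums and means over cells), 0.38 (citrine, without cells of over 1 hashtag), and -0.12, -0.14 and -0.14 (PDGFRa, depth range and matched). The PDGFRa resting median was -1.24, -0.90 and -1.28 in those settings, and its activation median 1.68 as a mean over cells. Against matched cells the activation median changed sign, to -0.34 and -0.0032 (ligated) and -0.076 and -0.074 (PDGFRa). Single genes did too in the ligated cells: Postn -0.12, Cthrc1 -0.19 and -0.0032, Fn1 -0.34 and -0.072, Col5a2 -0.048 and -0.019, Thbs4 -0.50, Wisp1 -1.26 and -1.04, and Kcnj8 0.80 and 0.087 (0.24 in the depth range). Elsewhere Fn1 was -0.16 and -0.086 (PDGFRa), and in citrine Fabp4 0.054 and 0.063 as means over cells and Wisp1 -0.19 without cells of over 1 hashtag. Matching uses fewer and deeper cells; other causes were not tested. No paired analysis was possible because each group is 1 library and the groups share no replicate numbers; cycling and other cells of the same hashtag are compared above. With 3 undamaged and at most 34 cycling cells per library, counting error limits every share.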

Other observations

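The PDGFRa hashtags fell into 2 sets by their cycling cells. Hashtags 1 and 2 held 12 and 13 (0.360 and 0.407%), and hashtags 3 and 4 held 1 each (0.0469 and 0.0471%). Cells with none of the 8 genes differed in the same order: Postn stood at 3055 and 3669 CPM in hashtags 1 and 2 and at 164 and 237 CPM in 3 and 4, and Cthrc1 at 717, 1036, 16.6 and 16.9 CPM. Their median UMI totals were 9283, 10302.5, 6416 and 6599. The labels used here tie no hashtag to a condition, so none was assigned.

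Genes of growth and metabolism showed small differences in cycling cells. Of 18 ribosome biogenesis genes, none of 15 was over 2-fold higher in the ligated, 5 of 18 in the citrine and 2 of 18 in the PDGFRa cells, with medians of 0.56, 0.76 and 0.63 (0.53, 0.77 and 0.61 against matched cells) and none lower. Nme1, a nucleoside diphosphate kinase, was at 0.59, 1.44 and 1.26, and the nucleolar protein Nop56 at 0.52, 1.28 and 1.07. Of the glycolytic genes, 3 of 9 were higher in the ligated cells, 1 of 11 in the citrine and none of 12 in the PDGFRa cells, where 1 was lower, with medians of 0.98, 0.22 and 0.34 (0.82, 0.32 and 0.09 against matched cells). In the ligated cells Tpi1 was at 1.27 and Gapdh at 1.05, while Aldoa was at -0.81, -0.95 and -0.32. The median of 17 respiratory chain genes was 0.35, 0.48 and 0.43 (0.41, 0.55 and 0.45 against matched cells).

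Growth factor genes were mixed. Igfbp5, which binds insulin-like growth factors, was at 1.12, 2.63 and 1.15, from 10 ligated, 8 citrine and 7 PDGFRa cycling cells; in the citrine library it was 2.36 against matched cells and 0.82 as a mean over cells. Pdgfa, a ligand of the PDGF receptors, was at 1.00, 1.25 and 0.97. Igfbp3 was lower in the citrine and PDGFRa cells, at -3.65 in the former. Of 12 interferon genes, 3 of 7 were over 2-fold higher and none lower in the ligated cells. In the citrine cells 1 was higher and 3 lower of 9, and in the PDGFRa cells 1 and 2 of 10. Their medians were 0.82, -0.78 and -0.07 (0.21, -0.71 and -0.11 against matched cells). Gbp2, an interferon-induced GTPase, was at 1.74 in the ligated cells, but was lower in each of the 4 hashtags with at least 5 cycling cells. The chemokine Cxcl9 rested on 1 ligated cell with 36 UMIs and 3 PDGFRa cells with 284 UMIs.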
